A study of Mus musculus with 8 samples.

Results

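Control germ cells of both sexes at E15.5 were compared: 2 libraries of female germ cells, which enter meiosis in the fetal ovary, and 2 libraries of male germ cells, the prospermatogonia of the fetal testis. These are the 4 control samples among the 8 of a study of Snf5 (Smarcb1), a subunit of the SWI/SNF chromatin remodelling complex, in which the other samples carry a germ cell-specific deletion of the gene. The libraries were assigned by their labels. The germ cells were sorted by fluorescence from embryos with the Oct4-EGFP transgene, in which the promoter of Oct4 (Pou5f1) drives a green fluorescent protein, so the level of Pou5f1 itself is tied to the sort. In both sexes the control cells were a mixture from Snf5 fx/+ embryos, Snf5 fx/Δ embryos and Snf5 fx/+ embryos with TNAP-Cre, a Cre that was inserted into Alpl and is active in germ cells, and the share of each genotype in a library was not used here. The labels give C57BL/6 as the background, whereas the methods give mixed stock of C57BL/6, 129/Sv and ICR. The replicates are described as biological duplicates. Each was made from pooled cells of several mice, and the paper does not give the genotypes in each library.

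In the mouse, germ cells of both sexes arrive at the gonad as primordial germ cells that still express pluripotency genes. In the ovary, retinoic acid and BMP signals lead to expression of Stra8 and to meiotic prophase, in which the synaptonemal complex forms and double-strand breaks are made and repaired. In the testis, the cells turn on Nanos2, stop dividing without entering meiosis, and then acquire DNA methylation through DNMT3A and DNMT3L while piRNAs guide methylation to transposons.

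RNA was measured as FPKM (fragments per kilobase of transcript, scaled to the mapped fragments of a library), in 1 table per sex. The tables were quantified and normalized in separate runs, so sex and run cannot be told apart, no test was made across the tables, and every difference between the sexes given here is a description of 4 libraries. Gene names were matched between the tables (22647 names), each library was rescaled to the same sum over these names, and the 11846 genes whose mean reached 1 FPKM were kept, of which 11362 were autosomal, 475 X-linked and 9 Y-linked. A gene is said to be higher in a sex when the lower library of that sex was at least 1 above the higher library of the other sex on the scale of log2(rescaled FPKM + 1), which is at least 2-fold on that scale, so that both libraries of the one sex lay above both of the other. Levels are in rescaled FPKM in the order replicate 1, replicate 2, and differences are the female minus the male mean on the log2 scale, with the standard error from 2 libraries per sex, a scale that understates the differences of low genes. A gene near 0 in one sex passes the filter only through the other sex, so the count of a list with such genes is a description and partly set by the filter.

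Genes of the meiotic programme and of the prospermatogonial programme lay at opposite ends of this comparison. The stretches before the starts of 6 genes, each higher in 1 sex, are shown. Any part of these stretches in the differences was not tested. They are 120 bases each, from RefSeq on the GRCm38.p6 build, 5′ to 3′ on the strand of the gene, and end 1 base before the transcription start. Capitals mark matches on either strand to CNCCTCAG (the letters known to be bound by STRA8 with MEIOSIN), TTCCCGC (of E2F type), CACGTG (an E-box), TATAAA or ATTTGCAT (the octamer).
Stra8 (chr6:34920828-34920947, + strand): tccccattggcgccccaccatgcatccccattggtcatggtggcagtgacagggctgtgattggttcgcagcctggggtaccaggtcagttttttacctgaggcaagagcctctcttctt
Sycp3 (chr10:88459467-88459586, + strand): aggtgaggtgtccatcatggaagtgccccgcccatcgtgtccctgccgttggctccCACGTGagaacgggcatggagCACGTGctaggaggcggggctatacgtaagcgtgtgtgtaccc
Figla (chr6:86017071-86017190, + strand): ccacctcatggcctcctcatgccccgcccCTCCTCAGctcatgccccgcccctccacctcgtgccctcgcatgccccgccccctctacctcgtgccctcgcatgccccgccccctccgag
Msh5 (chr17:35046623-35046742, - strand): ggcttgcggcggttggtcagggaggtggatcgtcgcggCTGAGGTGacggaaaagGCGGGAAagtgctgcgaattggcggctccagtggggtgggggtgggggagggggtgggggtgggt
Nanos2 (chr7:18987404-18987523, + strand): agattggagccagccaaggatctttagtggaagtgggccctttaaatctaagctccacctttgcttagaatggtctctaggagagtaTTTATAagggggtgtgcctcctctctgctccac
Pou5f1 (chr17:35505912-35506031, + strand): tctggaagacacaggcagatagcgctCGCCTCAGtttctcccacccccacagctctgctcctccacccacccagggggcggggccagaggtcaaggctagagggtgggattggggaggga
The first 4 belong to genes higher in female germ cells and the last 2 to genes higher in male germ cells. Figla and Msh5 hold CNCCTCAG at 91 and 82 bases before the start, and Pou5f1 holds the same letters at 94. Sycp3 holds CACGTG at 64 and 43 bases before the start, Msh5 also TTCCCGC at 65, and Nanos2 the TATAAA letters on the opposite strand at 33. No match to these 5 motifs lies in the stretch of Stra8. The RefSeq start was the end of the locus in the female table for Sycp3, Figla, Nanos2 and Pou5f1, and lay 101 and 123 bases from it for Stra8 and Msh5.

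Of the 11362 autosomal genes, 1862 (16.4%) were higher in female controls and 2336 (20.6%) were higher in male controls. The order of these counts turned without male control replicate 1, when 2690 genes were higher in female and 2302 in male controls. At a mean of at least 5 FPKM the counts were equal, at 1519 each. Under median-of-ratios rescaling they were 2210 in female and 2234 in male controls. Over all 11846 tested genes the shares were 16.9% and 20.5%, the background against which each list below is read. At least 4 on the log2 scale separated the means of 69 of the autosomal genes higher in female and of 97 of those higher in male controls. The genes nearest to the limit were Akap11 and Ube2h inside it, with gaps of 1.0018 and 1.00002, and Nemf and Slc26a11 outside it, with gaps of 0.9993 and 0.9997. The median absolute difference between the replicates was 0.27 in females and 0.37 in males, against 1.03 between the means of the sexes. Across genes, log2 values had a Pearson r of 0.978 between the female replicates, 0.967 between the male replicates and 0.703 to 0.737 between a female and a male library.

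**Figure D1:**
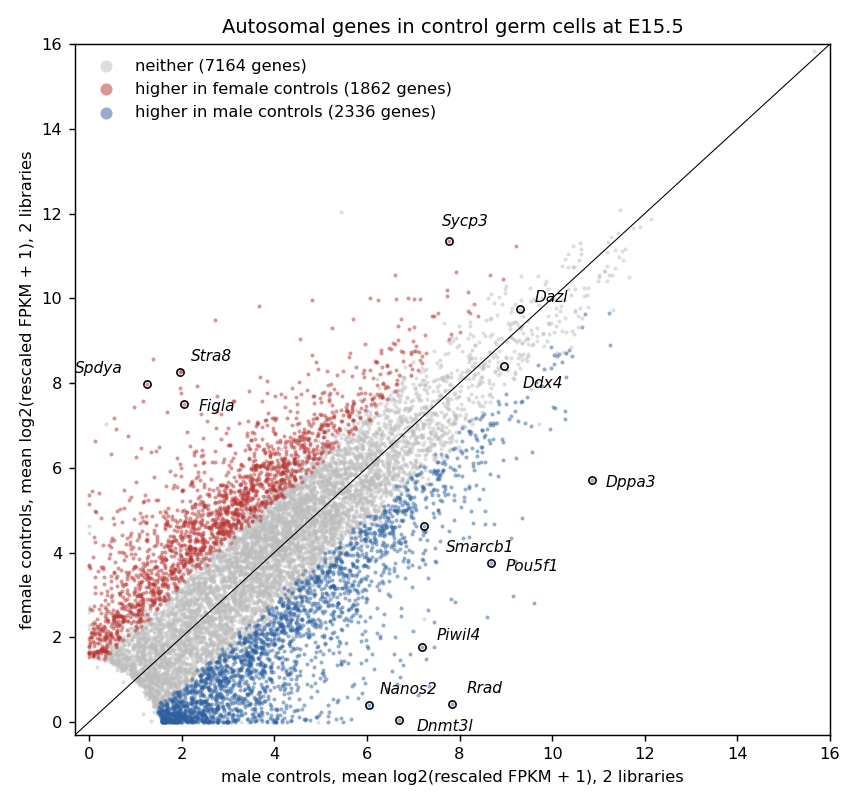
Mean log2(rescaled FPKM + 1) of each autosomal gene in the 2 male (x axis) and the 2 female control libraries (y axis), coloured by the sex in which the gene was higher, with 13 genes circled and named and the line of equal levels drawn. Stra8, Figla, Spdya and Sycp3 lie above the line, Nanos2, Dnmt3l, Piwil4, Rrad, Pou5f1, Dppa3 and Smarcb1 below it, and Dazl and Ddx4 close to it.

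The libraries themselves were checked first. The deposited FPKM summed to between 682745 in male control replicate 1 and 1367712 in male control replicate 2, and loci with no gene name held 6.56% of the sum in the former and 35.3% to 42.1% in the other 3 libraries, so male control replicate 1 stood apart in this respect. Among the controls of both sexes, the paper lists the fewest sorted cells for the first male control, and a link was not tested. Over matched names the rescaling factors were between 0.878 and 1.09. Of the tested genes, 41.1% had the same locus coordinates in both tables and the rest differed in at least 1 end, so that a length behind an FPKM can differ between the sexes. Between pairs of libraries, 34.8% to 66.3% of genes under 0.1 FPKM lay on ratios of small whole numbers, but depths that differ by a factor of 2 matched these steps almost equally, so the depth in fragments is unknown. The kit used keeps no strand, so a gene and an antisense partner cannot be told apart.

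As a check of the labelled sex, the 9 Y-linked genes of the list summed to 0 and 0.0123 in the female libraries and to 285 and 211 in the male ones. A Y-linked gene can pass the filter only through the male libraries, so the 8 that passed it are no further check. Eif2s3y, which encodes a translation factor, has a listed value of 0 in both female libraries and was at 133 and 126 in the male ones. Uba1y was at 0 and 0.0123 in the female libraries and at 121 and 62.5 in the male ones, and Sry is listed at 0 in all 4.

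The 6 marker genes of the cell types separated the sexes without overlap (positions are those of the female table on mm10). Stra8 (chr6:34920847-34939347), the gatekeeper of meiotic entry, was at 241 and 388 in the female libraries and at 2.61 and 3.21 in the male ones, a difference of 6.30 ± 0.36 and a ratio of the means of 108. Sycp3 (chr10:88459587-88503970), of the axial elements of the synaptonemal complex, was at 2863 and 2414 against 206 and 231 (3.58 ± 0.15). The male level of Sycp3 was thus not near 0. Figla (chr6:86017191-86020996), a transcription factor of oocytes, was at 156 and 210 against 2.85 and 3.49 (5.45 ± 0.24).

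In the other direction, Nanos2 (chr7:18987524-18988962), an RNA-binding protein that represses meiosis, was at 0.274 and 0.374 in the female libraries and at 66.8 and 63.2 in the male ones (-5.64 ± 0.07). Dnmt3l (chr10:78030022-78063622), the cofactor of de novo methylation, was at 0.0660 and 0 against 111 and 94.6 (-6.65 ± 0.12). Piwil4 (MIWI2, chr9:14701792-14740733), the nuclear PIWI protein, was at 2.19 and 2.62 against 181 and 116 (-5.42 ± 0.34). Both male libraries were thus above both female libraries for each of these genes.

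Genes that mark germ cells of either sex had a median of -2.86 over the 11 tested. Of these, 6 (54.5%, against 20.5% of all tested genes) were higher in males, Dppa3, Dnd1, Nanos3, Pou5f1, Sall4 and Tdrd1, and none in females. Dppa3 and Pou5f1 are counted again below among pluripotency genes, and Nanos3 and Dnd1 among prospermatogonial genes, so these lists are not independent. Ddx4, an RNA helicase, was at 389 and 292 in females and 617 and 402 in males, and Dazl, an RNA-binding protein needed to become competent for meiosis, was at 828 and 876 against 760 and 533. Mael, of the piRNA pathway, was at 719 and 623 against 1082 and 882. Ddx4, Dazl and Mael met the criterion in neither direction, and nor did Kit and Rnf17, the other tested genes of this list.

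Entry into meiosis was represented by 8 matched genes, and 5 of them were higher in female germ cells (62.5%) with a list median of 1.98, against 16.9% of all tested genes. Besides Stra8 these were Msx1, a homeobox factor downstream of BMP, at 21.3 and 41.9 against 0.0794 and 0.157, and Ythdc2, an RNA helicase of the meiotic transition, at 27.0 and 24.1 against 2.88 and 1.68. Rec8, the meiotic cohesin subunit, was at 29.5 and 46.5 against 7.87 and 7.54, and Rbm46 completed the group. Msx2 missed the criterion narrowly, at 7.87 and 9.14 against 3.73 and 3.96. Zglp1, a factor of oogenic fate, did not meet the criterion and had the higher mean in males, at 17.5 and 32.8 in females and 34.1 and 34.6 in males.

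Of 16 genes of the synaptonemal complex, the chromosome axis and meiotic cohesin, 14 (87.5%) were higher in female germ cells and none in male ones, with a median of 3.17. Syce3, of the central element, was at 918 and 1059 against 24.4 and 30.6 (5.12 ± 0.19), the largest difference of the list. Smc1b, a meiotic cohesin subunit, was at 478 and 568 against 23.7 and 21.7, and Sycp1, of the transverse filaments, at 727 and 546 against 36.3 and 37.8. The exceptions were Fkbp6, at 531 and 525 against 611 and 524, and Trip13, the ATPase that remodels HORMA proteins, at 27.8 and 20.9 against 41.7 and 27.4. Several of these genes were well above 0 in males: Tex12 was at 169 and 265, Stag3 at 134 and 64.5, and Hormad1 at 94.7 and 109.

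Break formation showed the same direction in 7 of 8 genes (87.5%), with a median of 4.02. Prdm9, the methyltransferase that places hotspots, was at 239 and 151 in females and at 1.47 and 1.06 in males (6.41 ± 0.36). Mei1 was at 85.4 and 72.7 against 0.360 and 0.419. Spo11, the nuclease that makes the breaks, was at 150 and 116 against 12.9 and 10.4. Cxxc1, which also acts in somatic cells as a subunit of a histone methyltransferase, was the gene of the list that was not higher, at 50.7 and 41.3 against 82.9 and 60.3.

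In recombination and crossover formation, 13 of 19 genes (68.4%) were higher in females and 2 in males, with a median of 1.88. The largest differences were those of Meiob, a single-strand DNA binder, at 255 and 215 against 3.48 and 2.38 (5.92 ± 0.24), Msh5, at 109 and 63.0 against 2.07 and 1.43, and Dmc1, the meiotic recombinase, at 217 and 193 against 5.43 and 6.14. Mnd1, whose protein acts with that of Psmc3ip at strand exchange, went against the list, at 23.6 and 27.0 in females and 87.3 and 98.6 in males (-1.84 ± 0.13). Psmc3ip was higher in females, at 53.2 and 51.1 against 19.4 and 22.2, so the partners differed in opposite directions. Helb, a DNA helicase, was the other exception, at 1.04 and 0.409 against 12.2 and 5.86.

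Among loci with the same coordinates in both tables, 7 of 8 axis genes, 4 of 5 recombination genes, 1 of 1 break formation gene and 1 of 2 entry genes were higher in females. Rec114 was listed in the female table only, at 84.6 and 117, and Msh4 was at 39.8 and 34.5 in females but shared its locus with Asb17os in the male table, where that locus was at 3.89 and 3.04. Gm4969 (Meiosin), Meioc, Ankrd31 and Rnf212 have no locus of that name in either table.

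**Figure D2:**
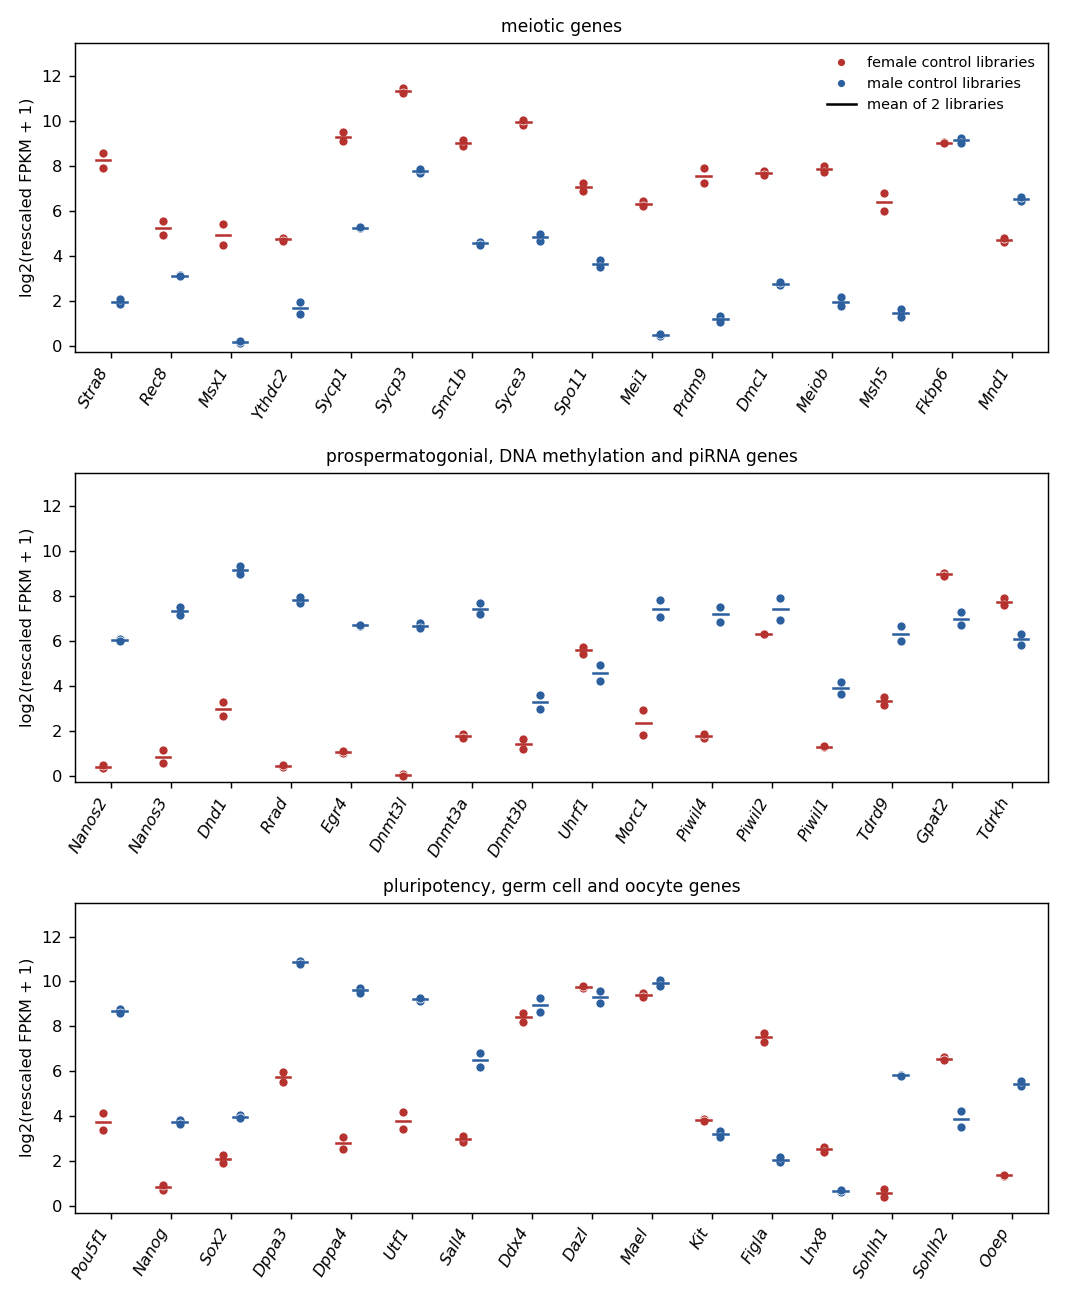
Level of 48 germline genes as log2(rescaled FPKM + 1) in each female (red) and male (blue) control library, with a bar at the mean of the 2 libraries of a sex. Red points lie above blue ones for the meiotic genes apart from Fkbp6 and Mnd1, blue above red for most prospermatogonial and all 7 pluripotency genes from Pou5f1 to Sall4, and Ddx4, Dazl and Mael lie close together.

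Oocyte genes did not move as a group. Of 12 that passed the filter out of 20 matched, 4 were higher in females and 4 in males (33.3% each), and the median was 0.27. Figla was joined by Lhx8, an oocyte homeobox factor, at 5.23 and 4.30 against 0.524 and 0.613, by Sohlh2, at 98.7 and 88.5 against 17.4 and 10.3, and by Ybx2, an RNA-binding protein. Sohlh1, which encodes the partner of SOHLH2, went the other way, at 0.671 and 0.298 in females and 55.8 and 54.6 in males (-5.25 ± 0.18). Ooep, of the subcortical maternal complex, was at 1.55 and 1.61 against 39.9 and 45.7. Padi6 and Zp1, which like Ooep are known from oocytes, were also higher in males but low, at 3.04 and 3.69 and at 3.94 and 2.19. Genes of growing oocytes such as Gdf9, Zp2 and Zp3 stayed below 2 FPKM in every library.

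Of 16 tested prospermatogonial genes, 12 (75%) were higher in males and none in females, with a median of -3.53, against 20.5% of all tested genes. Rrad, a small GTPase, had the largest gap of all autosomal genes in this direction, at 0.317 and 0.388 against 209 and 248 (-7.40 ± 0.13). Nanos3 was at 0.480 and 1.18 against 142 and 180, Dnd1, which acts with NANOS2, at 5.31 and 8.69 against 511 and 640, and Egr4, a zinc finger factor, at 1.04 and 1.11 against 102 and 106. Etv5, a factor of spermatogonial stem cells, was at 8.32 and 8.43 against 69.8 and 37.5. Id4, used as a marker of spermatogonial stem cells, was at similar levels, 28.3 and 25.2 against 29.1 and 37.5, and Zbtb16 stayed below 1.5 FPKM.

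Of 11 DNA methylation genes, 5 (45.5%) were higher in males and none in females, with a median of -0.47. At loci with matched coordinates, 1 of 4 was higher in males and the median was 0.74. Dnmt3a was at 2.66 and 2.2 against 208 and 145 (-5.67 ± 0.28), a ratio of 72.6, whereas Dnmt3b was at 2.11 and 1.28 against 11.2 and 6.73. Morc1, which silences transposons in male germ cells, was at 6.65 and 2.5 against 228 and 133, and Tet1, a methylcytosine oxidase, at 0.858 and 0.639 against 6.88 and 3.5. Dnmt1, the maintenance methyltransferase, was at 69.5 and 71.9 against 58.5 and 30.3, and its partner Uhrf1 at 52.7 and 41.7 against 29.3 and 17.8, and both missed the criterion.

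The piRNA pathway was mixed, with 11 of 21 genes higher in males (52.4%) and 3 in females, and a median of -1.33. Male-higher genes included Tdrd5, at 25.4 and 14.7 against 376 and 190, Tdrd9, at 7.87 and 10.2 against 101 and 63.1, Pnldc1, the trimmer of piRNA ends, at 11.9 and 14.6 against 131 and 106, and Gtsf1, at 59.8 and 86.2 against 474 and 500. Piwil2 (MILI) was at 78.2 and 78.2 against 243 and 121 and missed the criterion. Gpat2 was higher in females, at 530 and 483 against 154 and 104, as were Tdrkh, at 238 and 192 against 78.7 and 56.2, and Mybl1, a factor known from pachytene piRNA clusters, at 13.1 and 11 against 1.17 and 1.47. Without male control replicate 1 the genes higher in females numbered 5.

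Pluripotency and primordial germ cell genes were one-sided: 17 of 21 (81.0%) were higher in males, none in females, and all 21 means were lower in females, with a median of -2.75. Dppa3 was at 44.2 and 60.5 against 1914 and 1779 (-5.13 ± 0.23), Dppa4 at 4.75 and 7.42 against 836 and 726, and Utf1 at 9.60 and 17.2 against 553 and 621. Pou5f1, whose promoter drives the transgene of the sort, was at 9.26 and 16.5 against 436 and 383, a ratio of 31.7. Nanog was low in both, at 0.617 and 0.919 against 13.2 and 11.7, and Sox2 was at 2.79 and 3.75 against 15.3 and 14. The 4 genes that missed the criterion were Klf2, Klf4, Prdm1 and Tfap2c, all with higher male means. Alpl, into which TNAP-Cre was inserted in some control embryos, was at 14.8 and 21.0 against 56.8 and 43.6, and was not higher in males under median-of-ratios rescaling.

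The 10 autosomal genes with the largest gaps in each direction added genes outside these lists. Among those higher in females, Stra8 and Prdm9 have been described, and Inca1, an inhibitor of CDK2 with cyclin A1, ranked first at 405 and 351 against 1.89 and 1.36 (7.18 ± 0.18). Spdya (Speedy A), which activates CDK2 at meiotic telomeres, was at 265 and 235 against 1.63 and 1.17. M1ap, a meiotic gene, was at 871 and 928 against 12.5 and 10.8, and Ccdc79 (Terb1), which tethers telomeres to the nuclear envelope, at 222 and 134 against 1.14 and 0.809. Acer3, an alkaline ceramidase, was at 268 and 364 against 3.0 and 2.9. H2-Ab1 and Lcp2, known from immune cells, were at 133 and 153 against 0.512 and 0.409 and at 93.8 and 104 against 0.0724 and 0.117, while Ptprc, which marks leukocytes in general, was at 0.0274 or below in all 4 libraries. The uncharacterized 1700123I01Rik completed these 10.

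Among those higher in males, Rrad, Dnmt3l, Dppa4, Nanos3, Dnd1, Egr4 and Nanos2 have been described. Sdc4, a heparan sulfate proteoglycan, was at 4.0 and 5.2 against 409 and 365, and Phgdh, the first enzyme of serine synthesis, at 1.56 and 2.06 against 159 and 147. Defb19, a beta-defensin known from Sertoli cells, was at 0.275 and 0.905 against 150 and 124.

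Genes of somatic cells of the testis were among the male-higher genes. Of 13 tested Sertoli cell markers, 9 (69.2%) were higher in males and none in females, and the summed level of the 14 matched markers was 22.1 and 29.2 in the female libraries and 303 and 192 in the male ones. Cst9 and Dhh are listed at 0 in both female libraries and were at 58.7 and 32.8 and at 7.47 and 2.60 in the male ones. Amh was at 0.132 and 0.111 against 18.9 and 14.5, and Sox9, the defining factor of the lineage, at 0.0485 and 0.130 against 3.25 and 2.21. Dmrt1 of the same list is also a germ cell gene. The 6 matched Leydig cell markers summed to 1.74 and 0.930 against 54.7 and 22.5, with Cyp17a1 at 0.0588 and 0 against 22.0 and 10.2.

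Markers of other cells differed less. The 12 matched pre-granulosa markers summed to 27.8 and 58.1 in females and 108 and 112 in males, of which Gng13 was the most abundant, and Foxl2, the defining factor, was at 0.352 and 1.11 against 0 and 0.00835. Of the 6 that passed the filter, Bmp2 was higher in females and Rspo1 in males (16.7% each, against 16.9% and 20.5% of all tested genes). Stromal markers summed to 15.4 and 6.26 against 25.9 and 13.2. Of these, 1 of 5 tested (20%), Postn, was higher in males, near the 20.5% of all tested genes. The 10 matched blood and endothelial markers summed to 7.52 and 5.50 against 19 and 15.8. Of these, 2 of 4 tested (50%, against the same 20.5%, from few genes), Cd34 and Hbb-y, were higher in males. Adult globins are outside this sum because their names were merged or found in 1 sex only. The locus of Hbb-b1 and Hbb-bs was at 11.7 and 53.0 against 23.1 and 35.5. The 2 loci of Hba-a1 and Hba-a2 were at 8.93 and 40.6 and at 9.36 and 32.9 in females. In males they were at 20.4 and 29.5 and at 15.2 and 20.3. Female control replicate 2 was thus the highest library at these loci. Hbb-bt, listed for males only, was at 13.1 and 16.2. The sums of somatic and blood markers stand beside every male-higher result here, and their part in those results was not tested. The paper also lists a higher purity of the sorted cells for both female controls than for both male controls. In bulk samples a smaller share of cells of a type and less RNA per cell cannot be told apart.

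Mitotic arrest of the male cells was looked at through cell cycle genes, and these did not move together. Of 18 genes of proliferation and mitosis, 3 (16.7%) were higher in females, 4 (22.2%) in males and the median was -0.27. These shares are near the 16.9% and 20.5% of all tested genes. Mki67, the proliferation antigen, was at 31.3 and 18.9 in females and 2.74 and 1.58 in males (3.03 ± 0.44), and Tpx2, a spindle factor, at 61.1 and 46.6 against 17.8 and 10.1. Ccnb1, cyclin B1, went the other way at 14.6 and 11.6 against 197 and 158 (-3.66 ± 0.22), as did Aurkb, at 1.01 and 1.52 against 15.6 and 13.1, and Aurka, at 17.3 and 11.7 against 69.8 and 55.0. Cdk1 was at 15.0 and 17.7 against 20.2 and 17.6. Leaving out male control replicate 1 raised the count of female-higher genes to 5.

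Of 21 replication genes, 8 (38.1%) were higher in females and 2 in males, Gins4 and Mcm7. Rrm2, of ribonucleotide reductase, was at 54.0 and 46.1 against 9.36 and 5.19, and Gins3, of the replicative helicase, at 54.8 and 41.0 against 7.13 and 5.15. Mcm7, of the same helicase, was at 29.8 and 35.5 against 153 and 102, Mcm5 was higher in females, and Mcm2, Mcm3, Mcm4, Mcm6 and Mcm10 met the criterion in neither sex. Of 13 G1 and S phase genes, 4 (30.8%) were higher in females and 5 (38.5%) in males, with a median of -0.78. The E cyclins Ccne1, at 33.1 and 35.1 against 5.01 and 4.18, and Ccne2, at 87.0 and 76.7 against 1.79 and 1.29, were higher in females, and so were E2f4 and E2f5. Cdk4 was at 35.7 and 39.0 against 372 and 310 in males (-3.15 ± 0.15), and Cdk6, Ccnd2, Ccnd3 and E2f6 were higher in males. At loci with the same coordinates 3 of 5 such genes were higher in females and none in males, with a median of 1.73. Ccnd1, at a locus shared with Mir3962, was higher in females, at 8.93 and 14 against 1.3 and 0.977.

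For inhibitors of these kinases, 2 of 11 genes (18.2%) were higher in females and 1 (9.09%) in males. The shares of all tested genes were 16.9% and 20.5%. Cdkn2c (p18) was at 9.72 and 8.47 against 1.15 and 1.26 and Cdkn2d (p19) at 47.0 and 68.8 against 18.2 and 20.8, the latter missing the criterion without rescaling. Cdkn2b (p15), which is known for its part in the arrest of prospermatogonia, was at 2.07 and 1.81 against 10.1 and 7.09. Cdkn1b (p27) was at 0.426 and 0.717 against 1.89 and 2.66, below the criterion, and Rb1 was at 18.8 and 15.6 against 17.4 and 14.9.

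Signalling genes differed by pathway. Targets and receptors of BMP were higher in females in 7 of 13 genes (53.8%) and in males in 1, with a median of 1.31. Id1, a direct BMP target, was at 114 and 113 against 3.86 and 2.90 (4.72 ± 0.16), Id3 at 169 and 278 against 12.8 and 13.8, and Id2 at 24.9 and 28.6 against 2.88 and 2.08, whereas Id4 did not differ by the criterion. Gata2, a transcription factor induced by BMP, was at 20.4 and 22.0 against 1.96 and 1.39. The receptors Bmpr1a and Bmpr2 and the mediator Smad5 were higher in females. Smad7, an inhibitor, was at 1.71 and 1.31 against 8.64 and 5.44.

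For Nodal and activin, 4 of 10 genes (40%) were higher in males and none in females, against 20.5% and 16.9% of all tested genes. These 4 were below 1 FPKM in both female libraries and passed the filter through the male ones, so the count is partly set by the filter. Nodal, the ligand, was at 0 and 0.0600 against 8.25 and 7.05. Its inhibitors and targets Lefty1, at 0 and 0.0330 against 12.4 and 12.4, and Lefty2, at 0.0212 and 0.0823 against 10.3 and 8.99, were higher in both male libraries. Gdf3, a related ligand, was at 0.252 and 0.731 against 8.79 and 7.66, while the receptors Acvr2a and Acvr2b and the mediator Smad2 had higher female means that missed the criterion.

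For retinoic acid, 5 of 10 tested genes (50%) were higher in males and 1 in females, with a median of -1.51. Rara, a receptor, was at 4.19 and 4.56 against 21.8 and 14.8, Rarg at 1.51 and 0.930 against 12.8 and 7.64, and Crabp2, a binding protein, at 6.12 and 6.47 against 40.7 and 28.1. Aldh1a1, a synthesizing enzyme, was at 2.44 and 2.84 against 27.1 and 13.0, and Rdh10, which makes retinal, at 12.5 and 9.75 against 2.31 and 2.42. Cyp26b1, the enzyme that degrades retinoic acid in the testis and is known from its somatic cells, stayed below 0.5 FPKM in all 4 libraries.

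**Figure D3:**
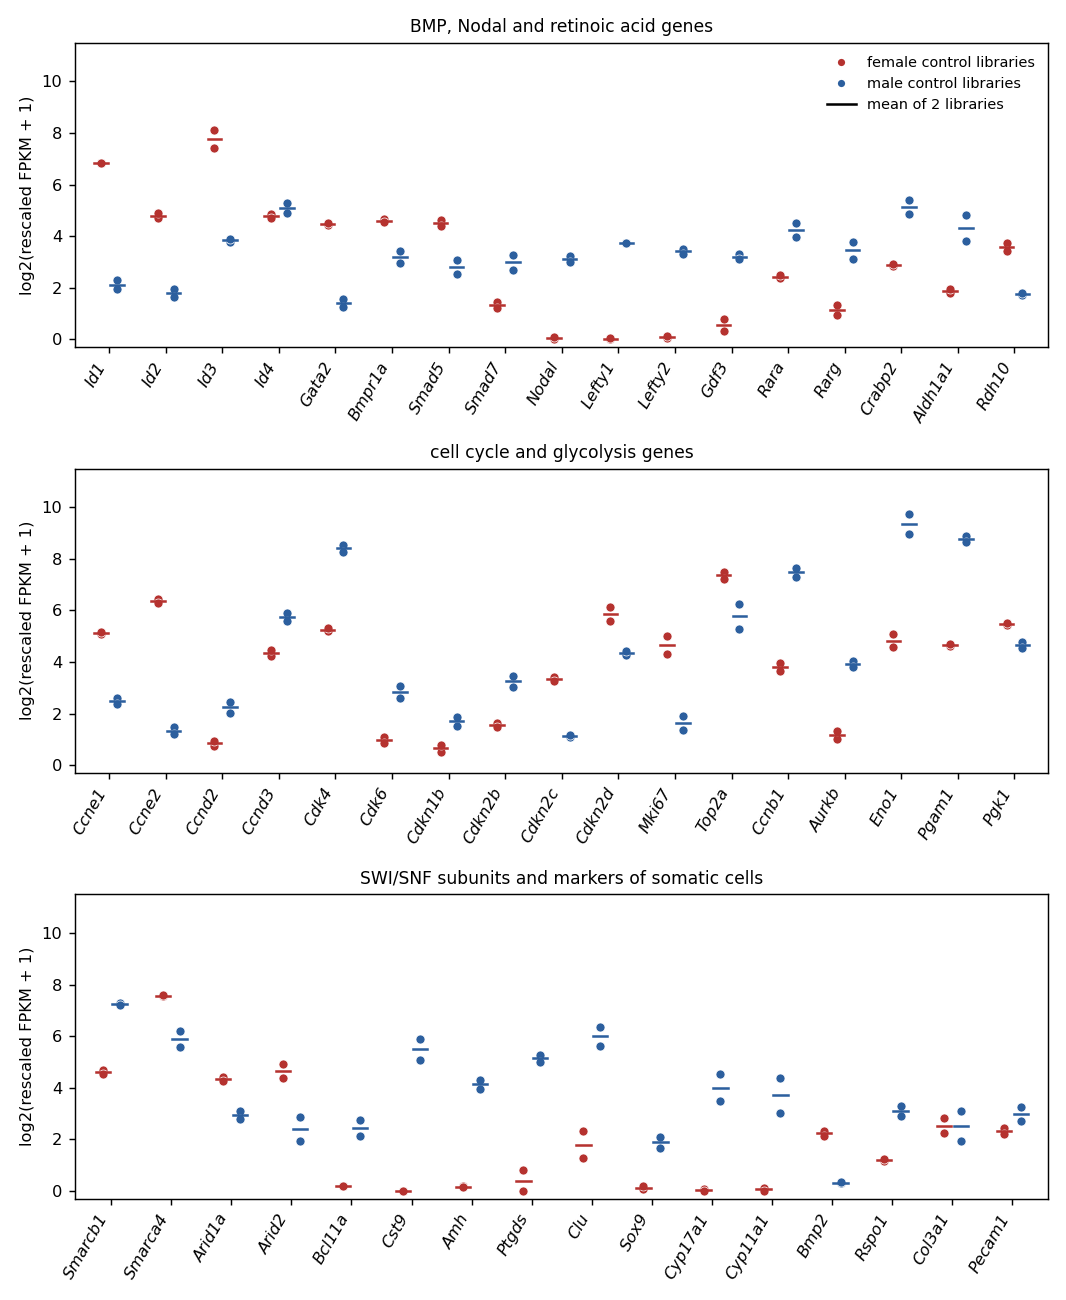
Level of 50 genes of signalling, the cell cycle, glycolysis, SWI/SNF and somatic cells as log2(rescaled FPKM + 1) in each female (red) and male (blue) control library, with a bar at the mean of the 2 libraries of a sex. Id1, Id2 and Id3 are higher in red, Nodal, Lefty1 and Lefty2 in blue, and Cst9 lies at 0 in red.

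Smarcb1 (Snf5), the gene the study deletes, was itself unequal between the control sexes. At the same locus in both tables (mm10 chr10:75896769-75921614) it was at 25.1 and 22.1 in females and at 154 and 147 in males (-2.63 ± 0.10), a ratio of 6.38. The paper describes the control samples as a mixture that includes cells with 1 deleted allele, whose share in each library was not used here. Of 25 tested SWI/SNF subunits, 3 (12%) were higher in each sex, shares below the 16.9% and 20.5% of all genes, and the median was 0.16. Smarca4 (BRG1), an ATPase of the complex, was at 188 and 193 against 73.0 and 46.7, Arid1a at 20.6 and 18.1 against 7.56 and 5.84, and Arid2 at 29.6 and 19.7 against 6.39 and 2.86. Bcl7c and Bcl11a were the other male-higher genes, Bcl11a at 0.146 and 0.144 against 5.69 and 3.39. Among the 8 subunits at loci with the same coordinates none was higher in females and 1 was in males. Without male control replicate 1 the female-higher subunits numbered 8, and Bcl7c was not male-higher under median-of-ratios rescaling.

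Polycomb genes were as evenly split, with 3 of 24 (12.5%) higher in each sex, below the 16.9% and 20.5% of all tested genes. Ezh2, the methyltransferase of PRC2, was at 54.2 and 48.8 against 22.8 and 19, and its partner Eed was at 40.5 and 32.5 against 120 and 103. Without male control replicate 1 the female-higher genes numbered 7. Imprinted genes were higher in females in 3 of 18 (16.7%) and in males in 5 (27.8%), against the same 16.9% and 20.5%. Igf2, a paternally expressed growth factor, was at 15.7 and 20.8 against 1.99 and 2.59, and Ndn, also paternally expressed, at 7.43 and 9.34 against 38.7 and 37.3. The female-higher imprinted genes numbered 6 without female control replicate 2.

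**Figure D4:**
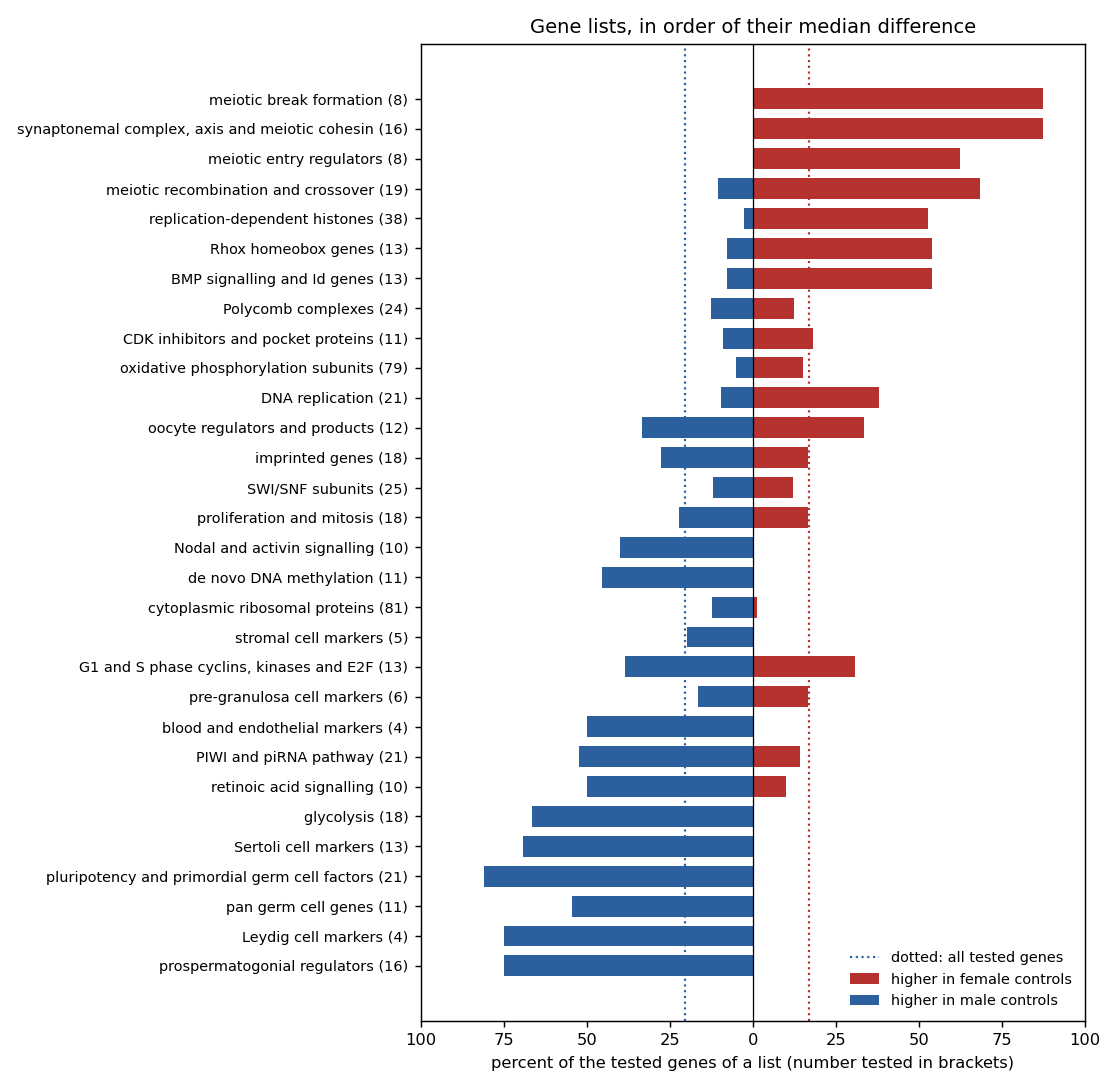
Percent of the tested genes of 30 lists that were higher in female (red, to the right) or in male controls (blue, to the left), ordered by the median difference of the list, with the number tested in brackets. Dotted lines mark the 16.9% and 20.5% of all tested genes, and the meiotic lists reach 62.5% to 87.5% in red, the pluripotency list 81.0% and the prospermatogonial list 75% in blue.

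X-linked genes tilted towards females. Of 475 tested, 143 (30.1%) were higher in females and 82 (17.3%) in males, against 16.4% and 20.6% of autosomal genes. Their median difference was 0.34, which was 0.40 above that of autosomal genes and between 0.29 and 0.48 above it in the 4 pairs of a female and a male library. The medians of the 19 autosomes ran from -0.31 on chromosome 10 to 0.28 on chromosome 12, so the X chromosome lay above all of them, though near chromosome 12. A higher mean in females was found for 57.3% of X-linked and 48.5% of autosomal genes. The shift was 0.47 when the minimum mean was 5 FPKM and 0.38 without the Rhox genes.

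**Figure D5:**
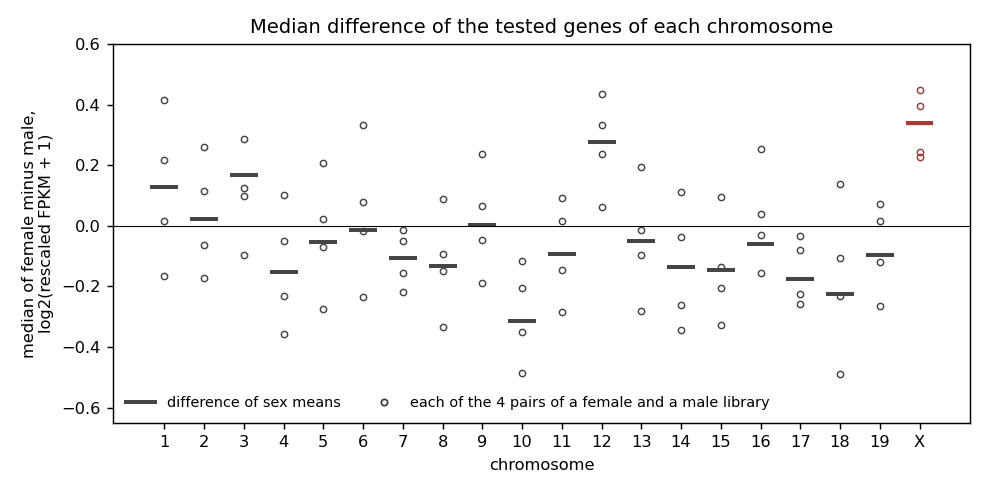
Median over the tested genes of each chromosome of the female minus male difference in log2(rescaled FPKM + 1), as the difference of the sex means (bars) and in each of the 4 pairs of a female and a male library (circles). The X chromosome is at 0.34, and the autosomes run from -0.31 to 0.28.

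Xist, the RNA that coats an inactive X chromosome, was at 0.192 and 0.165 in females and at 0.0979 and 0.140 in males. All 4 values were under 0.2 FPKM, below the filter, and both female values were above both male ones. Rlim, a gene that activates Xist, was level, at 13.8 and 10.6 against 13.9 and 8.05.

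The Rhox genes, an X-linked cluster of reproductive homeobox genes, had 13 of 29 members tested, with a median of 1.44. Of these, 7 (53.8%) were higher in females and 1 (7.69%) in males, against 30.1% and 17.3% of X-linked genes. Rhox9 was at 72.9 and 87.0 against 4.30 and 3.57, Rhox6 at 61.6 and 68.8 against 3.08 and 3.78, and Rhox13 at 87.6 and 149 against 7.48 and 9.99. Rhox10, known from spermatogonia, was the exception, at 0.177 and 0.368 against 132 and 174 (-6.91 ± 0.23). Rhox5 had the same direction without meeting the criterion, at 71.9 and 132 against 237 and 284. Copies of Rhox2 are nearly identical, so how reads were divided among them is uncertain. Rhox2a, Rhox2b and Rhox2c are among the 7 genes higher in females, so these 7 are not independent members. By gap, in an order set after the values were seen, 1700013H16Rik, Ndufa1, Cited1, Xlr4a and Ap1s2 led the X-linked genes higher in females, Ndufa1, a subunit of respiratory complex I, at 2742 and 3331 against 66.7 and 99.2. Behind Rhox10 in males came Nxf2, Gm1141, Zcchc12 and Fhl1, with Nxf2, an RNA export factor, at 15.6 and 15.3 against 407 and 287.

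Glycolysis was higher in males in 12 of 18 genes (66.7%) and in females in none, with a median of -1.67. Eno1, an enolase, was at 32.7 and 22.7 against 843 and 504 (-4.53 ± 0.45), Pgam1 at 23.5 and 25.2 against 467 and 396, and Ldhb at 33.8 and 40.3 against 252 and 219. Pgk1, the X-linked phosphoglycerate kinase, had a higher mean in females, at 41.7 and 44.3 against 26.4 and 22.4, and Ldha did not meet the criterion, at 19.2 and 25.7 against 35.3 and 31.7.

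Promoter sequences were compared between the directions. A RefSeq promoter of 300 bases, 250 before and 50 after the start, was matched to 8489 of the 11362 autosomal genes (74.7%), and in 77.6% its start lay within 500 bases of the end of the locus. On either strand, CNCCTCAG was in 15.7% of the 1389 promoters of female-higher genes, 7.25% of the 1723 of male-higher genes and 9.65% of all. TTCCCGC was in 12.7%, 6.21% and 9.29%. The reverse order held for CACGTG, at 7.92%, 12% and 10.6%, and for the octamer ATTTGCAT, known from OCT4 binding, at 0.720%, 2.61% and 1.38%. TATAAA was in 5.90%, 8.82% and 6.42%, and TGACGTCA, the CREB site, in 3.60%, 2.90% and 3.60%. These are among 22 motifs that were searched, some of which overlap, and they were not adjusted for composition: female-higher promoters had a median of 24 CG pairs and 63.3% GC, male-higher ones 18 and 59.3%, and all promoters 22 and 61.7%. A match describes letters in a window and not a bound site.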

How the data were processed

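Germ cells of control ovaries and testes at E15.5 were analysed by RNA-Seq, with 2 libraries per sex. Per the labels and methods, cDNA was amplified with the SMART-Seq v4 kit, libraries were made with Nextera XT, and paired-end reads were mapped and quantified on mm10 (the submitters' processing notes name TopHat2 2.2.1 and Cuffdiff 2.1.1, and the methods of the paper give other version numbers for Tophat and Cufflinks). The methods of the paper name more than 1 sequencing instrument and more than 1 read length, without saying which library used which. Instrument and read length may thus also differ between the sexes or the replicates, and this was not tested. The authors deposited 1 table per sex with FPKM values, 16 columns of confidence bounds that were not used here, and a status word per locus and library. The version of the annotation is not given in the sources used here. Adding 1 to a start gave a GENCODE transcript start for 44.3% of named female loci, against 4.22% for the start as deposited, so 1 was added throughout.

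Columns were assigned to samples by their names and the sample labels. Loci with no gene name (4737 female and 6272 male) were left out, and of several loci of 1 name the one with the highest mean FPKM was kept. Values were rescaled to 1 sum over matched names, 1 was added as pseudocount and log2 was taken, with Python 3.11.15, numpy 2.4.6 and pandas 2.3.3. The criterion was tested on simulated data. As the tables of the sexes were normalized separately, no test and no p-value was computed across them. Genes with both libraries of a sex at 0 are given no ratio. Named genes are the 6 markers, members of the lists with the largest and smallest differences and those that define a pathway, the 10 autosomal genes with the largest gap in each direction (single names, overlapping loci), Smarcb1, Xist and Y-linked genes. Some genes of the lists are not reported here. The comparison, its members and the lists were chosen with earlier results of these data known. FPKM carry no depth, so no counting interval is given. Alternatives were another pseudocount, filters, rescalings, rules for loci, the replicate block, a looser criterion, each library left out and, chosen after seeing the tables, rescaling without Pi4ka, Cmss1 and Filip1l. Replicate 2 minus replicate 1 had a correlation across genes of 0.431 between the sexes, from 2 pairs.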

Additional observations from a re-analysis of the deposited data

How the results depend on the processing

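All 214 named genes that were higher in 1 sex kept the direction of their difference under the 16 alternatives in which they were measured, and 206 met the criterion in each of them. Many of these alternatives cannot take a call away by their construction. Such are the looser criterion, the replicate block, the smaller pseudocount, the filters on the mean and each library left out. All calls that were lost were lost under a change of the rescaling. Alpl, Bcl7c, Pld6 and Ube2c missed it under median-of-ratios rescaling, Cdkn2d, Gins1 and Psmc3ip without rescaling, and Esrrb under both. The counts of autosomal genes changed by over 1.5 times where fewer genes were tested: 674 higher in females and 1034 in males with the same coordinates in both tables, and 1519 in males at a mean of at least 5 FPKM. At that mean 1519 were also higher in females, so the male excess of the main counts was absent there. Leaving out each library gave 1944 to 2690 higher in females and 2302 to 2896 in males. In a paired comparison within each replicate number (the replicate block), 2336 genes were higher in females and 2702 in males. By construction these include all genes of the main counts. The X-linked shift was 0 with no filter, where most added genes are near 0, and 0.31 to 0.47 with each library left out. Of 1088 counts of lists under the alternatives, 980 were within 1.5 times, and the cause of the other changes was not tested. Another rescaling moved the median of autosomal genes by 0.09 at most, and the share of female-higher among all such genes from 44.4% to between 42.5% and 49.7%.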

Other observations

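Replication-dependent histone genes, most of whose mRNAs lack a poly(A) tail, were higher in females in 20 of 38 tested (52.6%) and in males in 1, with a median difference of 1.76. Hist1h1e, a linker histone, was at 86.2 and 93.6 rescaled FPKM in the female libraries and at 2.57 and 4.81 in the male ones, and Hist1h4c at 92.6 and 62.7 against 3.68 and 5.08. Hist1h2bc went the other way, at 1.79 and 1.66 against 41.9 and 47.2. At loci with the same coordinates in both tables the count was 20 of 34. The kit is understood to prime from poly(A) tails, and its part in these levels was not tested.

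Genes of cytoplasmic ribosomal proteins were higher in males in 10 of 81 (12.3%), below the 20.5% of all tested genes. In females 1 was higher (1.23%, against 16.9%), Rps27l, at 2222 and 2618 against 499 and 715. The leading male-higher genes were the copies Rpl39l, at 50.9 and 73.4 against 283 and 351, and Rpl10l, at 43.9 and 47.2 against 195 and 260. Their X-linked parents leaned the other way without meeting the criterion, Rpl39 at 1333 and 2249 against 685 and 1190 and Rpl10 at 713 and 929 against 357 and 378. Reads of such copies can be hard to divide, and without female control replicate 2 the male-higher count was 22. Subunits of oxidative phosphorylation were higher in females in 12 of 79 (15.2%) and in males in 4 (5.06%). Both shares are below the 16.9% and 20.5% of all tested genes. The subunits higher in females were led by Ndufa1 and Atp5f1 (1496 and 1497 against 89.4 and 105). Those higher in males were led by Cox7b (19.4 and 29.4 against 175 and 269). Zinc finger genes named Zfp were split, 41 and 46 of 277 (14.8% and 16.6%), also below the shares of all tested genes. Zfp672 was at 239 and 250 against 2.59 and 6.15.

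Gm4969 (Meiosin), the partner of Stra8, lies at chr7:19099046-19118368 in the GENCODE annotation of GRCm38. In the female table a locus named for Dmpk and Six5 reaches over this interval (mm10 chr7:19083849-19118606) and was at 392 and 331. The locus of the male table over the same interval is named Six5 and was at 3.09 and 1.83 in the higher of its entries. Which gene these fragments came from was not tested.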
